A study of Iris tectorum with 6 samples.

Results

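Histones, DNA replication proteins and cyclins were named in 206 of the 111791 assembled transcripts (unigenes) of Iris tectorum leaves. These 206 were chosen by words in the best protein hit (histone H, DNA replication, proliferating cell nuclear, minichromosome, ribonucleoside-diphosphate reductase or cyclin-), with chromatin-modifying enzymes dropped. Only hits to 8 genera of monocots were kept, which led to 85 unigenes named after Asparagus, 37 after Elaeis, 34 after Phoenix, 20 after Dendrobium, 14 after Ananas, 9 after Musa, 7 after Phalaenopsis and none after Iris itself. The rule for the choice used names and no measured values, but it was set with earlier results of these data known. The 206 unigenes fell into 120 units (contig clusters or single unigenes), since 132 of them were contigs of assembly clusters, whose contigs can share reads. In 23 of the clusters there were also contigs outside the group, some with other product names.

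Dividing plant cells copy their DNA in S phase and then separate it in mitosis. The MCM helicase is loaded on replication origins and is opened by the GINS complex and CDC45, the sliding clamp PCNA holds the polymerases on DNA, and ribonucleotide reductase makes the deoxynucleotides. New DNA is packed around core histones H2A, H2B, H3 and H4, with H1 bound to the linker between nucleosomes. D-type cyclins with their kinases start the cycle, A- and B-type cyclins carry it through S phase and mitosis, and inhibitors of the KRP and SIAMESE-RELATED (SMR) families hold it back. Several proteins that carry the name cyclin or cyclin-dependent kinase act in transcription or splicing instead, among them cyclins C, H, L and T. Most cells of a grown leaf no longer divide.

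The 2 groups were leaves of Iris tectorum, a rhizomatous garden iris, grown in swine wastewater together with Dictyosphaerium sp. (co-culture), a colonial green microalga, and leaves of iris grown in the same kind of water without added microalga (plant alone). Co-culture libraries 1, 2 and 3 and plant alone libraries 2 and 3 were analysed. Plant alone library 1 was not analysed here. Both groups stood flooded in a glasshouse, and plant age, culture time and pooling of plants are not stated in the labels. The labels do not say whether the libraries came from separate cultures, so the p-values measure the spread between these libraries, which may be technical.

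The co-culture libraries held 20968638 to 22975476 expected counts, and the plant alone libraries 18616729 and 18881815. A count of 3 was worth 0.124 to 0.172 CPM (counts scaled to the size of each library), a floor that covers counting error only. Leaf markers fitted the label, with reads for 48 to 52 of 53 such unigenes (light harvesting proteins, photosystem I, the small chain of Rubisco and phosphoribulokinase) in each library. Their summed level was 10813, 20005 and 2127 CPM in co-culture 1, 2 and 3, against 5743 and 3362 CPM in plant alone 2 and 3. Shoot meristem markers (23 unigenes, of which 16 to 19 had reads) summed to 120 to 132 CPM in co-culture, against 136 and 183 CPM in plant alone. Most of that sum came from 9 knotted-1-like names, with 107, 93.7 and 90.7 CPM in co-culture and 110 and 155 CPM in plant alone. The CLAVATA names and the WUSCHEL-related names overlapped between the groups, each with its highest library in co-culture. No unigene matched SHOOT MERISTEMLESS or CUP-SHAPED COTYLEDON by name. Unigenes with a protein hit in a green algal genus (369, of which 284 to 338 had reads) summed to 1960 to 2253 CPM in co-culture, below the 2727 and 3548 CPM in plant alone. The part of these 3 marker lists in the results was not tested. In such bulk leaf RNA, fewer cells of a type and less RNA per cell cannot be told apart.

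Levels between genes are compared in the authors' FPKM, which divides by transcript length. Over the 206 unigenes the mean FPKM of the groups reached 1 in 138 unigenes (67.0%), and 136 had reads in all 5 libraries. Histones H1, H2A and H2B, the GINS names, the kinases and the cyclins C, H, L and T were among the most abundant classes. Histone H1 summed to 120, 262 and 108 FPKM in co-culture and to 108 and 90.0 FPKM in plant alone. H2A lay between 108 and 132 FPKM and H2B between 94.9 and 177 FPKM in all libraries. Cyclin-dependent kinases (46 unigenes) lay between 255 and 370 FPKM, and cyclins C, H, L and T (26 unigenes) between 173 and 329 FPKM. Other DNA replication names, mostly GINS, lay between 120 and 132 FPKM.

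MCM, PCNA, ribonucleotide reductase and CDKB names were lower on the same scale. The 22 MCM unigenes together gave 8.64 to 16.7 FPKM, PCNA 5.85 to 8.24 FPKM, and the large subunit of ribonucleotide reductase 8.61 to 9.62 FPKM. Its small subunit reached 1.19 FPKM at most in the genera kept. MCM2 summed to at most 0.71 FPKM, MCM7 to at most 0.24 FPKM, and no unigene of the group was named MCM4. Kinase CDKB1-1, which acts at the entry into mitosis in Arabidopsis, summed to 0.90, 0.93 and 1.92 FPKM in co-culture and to 2.11 and 0.72 FPKM in plant alone. CDKB2-1 stayed at or below 0.17 FPKM.

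**Figure D1:**
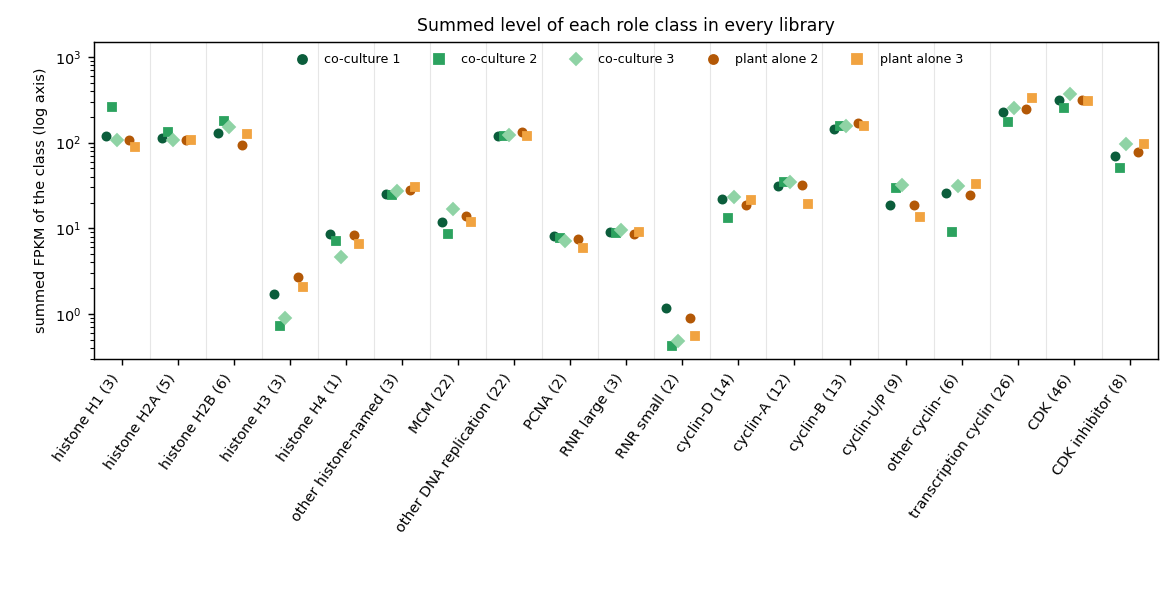
Summed FPKM (log axis) of the unigenes of each role class, with the number of unigenes in brackets; each point is 1 library, with co-culture 1 to 3 left of plant alone 2 and 3. Kinases, cyclins C, H, L and T, cyclin-B names, H1, H2A, H2B and other DNA replication names lie highest, and histone H3 and the small subunit of ribonucleotide reductase lie lowest, between 0.42 and 2.67 FPKM.

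Names and KEGG identifiers disagreed in part, which bears on how the cyclin-B level is read. All 6 unigenes named cyclin-B1-2 carried the KEGG identifier of the proteasome maturation protein. They made up 127 to 145 of the 145 to 170 FPKM of the cyclin-B class in every library. Names that KEGG also calls cyclin B were lower: cyclin-B3-1 summed to 5.46, 12.8 and 25.1 FPKM in co-culture, against 41.2 and 21.0 FPKM in plant alone. In CPM, without division by length, the same unigenes summed to 7.57, 15.2 and 18.4 in co-culture and to 16.8 and 6.995 in plant alone. Plant alone 2 was thus highest in FPKM and co-culture 3 in CPM, and the groups overlapped on both scales. Cyclin-B2-2 was listed at 0 in co-culture and had 1.56 and 2.63 FPKM in plant alone, which was 0.314 and 0.573 CPM. This unigene had too few counts to be tested. Among the 9 unigenes named cyclin-U or cyclin-P, 7 had an identifier of leucyl aminopeptidase, the single CDK11B-like unigene had that of a collagen, and 1 cyclin-L1-1 unigene had that of the splicing factor U2AF65. The other 2 cyclin-L1-1 unigenes had that of cyclin T, and the 4 named CDKF-4 that of a male germ cell-associated kinase. All 3 unigenes named after the H2A.Z chaperone CHZ1 had an identifier of the histone demethylase JMJD6 beside another.

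No unigene of the group changed between co-culture and plant alone by the main test. After the filter on low counts, 162 of 206 (78.6%) were tested with edgeR's quasi-likelihood test, and 0 passed at an adjusted p of 0.05, where 0.00% of all 69984 unigenes tested passed. The smallest adjusted p of edgeR was 0.628. At an unadjusted p below 0.05 stood 8 of 162 (4.94%), against 7.20% of all unigenes. Of these, 3 were higher in co-culture (1.85%, against 2.75% of all) and 5 were lower (3.09%, against 4.45% of all). DESeq2 called 1 of the 155 unigenes to which it gave an adjusted p (0.645%), against 2.00% of all. These shares of the group lie below the background shares.

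Fold changes of the group scattered around a value near 0. The median log2 fold change, co-culture over plant alone, was 0.12 for the 162 tested unigenes and 0.00 for all tested unigenes. The middle 50% of the values ran between -0.42 and 0.62, against -0.65 and 0.63 for all. A positive log2 fold change was seen in 91 of 162 (56.2%, against 50.1% of all). All co-culture libraries lay above both plant alone libraries in 20 unigenes (12.3%, against 12.8% of all), and below them in 17 (10.5%, against 17.2% of all). The summed level of the whole group was 1703, 1929 and 1675 CPM in co-culture and 1667 and 1903 CPM in plant alone. The ranges of the groups overlapped.

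**Figure D2:**
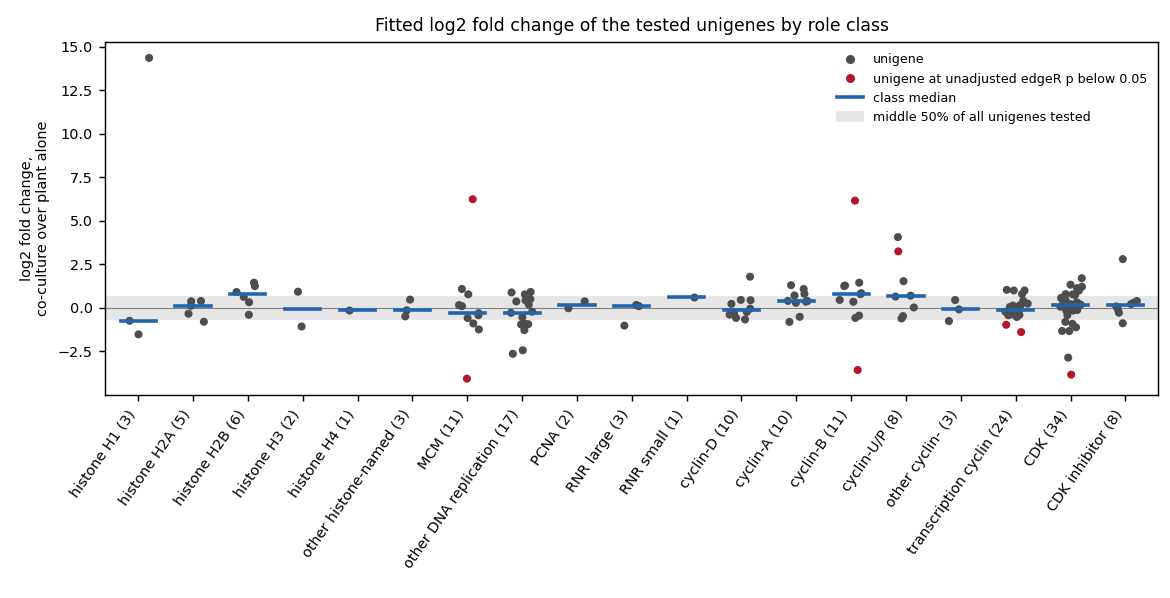
Fitted log2 fold change (co-culture over plant alone) of the tested unigenes in each role class, with the number tested in brackets; the blue bar is the class median and the grey band holds the middle 50% of all unigenes tested. Class medians range between -0.75 for histone H1 and 0.79 for cyclin-B names, and 8 unigenes, in red, had an unadjusted edgeR p below 0.05.

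In the 206 unigenes, co-culture 1 was closer to plant alone than to the other co-culture libraries, while co-culture 2 and 3 were closer to their own group. Across the 206 unigenes, Spearman's rho was 0.902 between co-culture 1 and plant alone 2 and 0.897 between co-culture 1 and plant alone 3. It was 0.863 between co-culture 2 and 3, 0.847 and 0.811 between co-culture 1 and these libraries, and 0.883 between the plant alone libraries. Co-culture 2 and 3 had rho between 0.771 and 0.801 with plant alone. Over all 111791 unigenes co-culture 1 was again closer to plant alone (0.831 and 0.803) than to co-culture 2 and 3 (0.759 and 0.704). There, rho between co-culture 2 and 3 was 0.686. With plant alone 2 and 3 it was 0.692 and 0.668 for co-culture 2, and 0.691 and 0.688 for co-culture 3. These are descriptions across unigenes, which share libraries and contig clusters and are not independent. The common biological coefficient of variation over all unigenes was 0.773.

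Many contigs had reads in some libraries and none in others. In 34 of 206 unigenes (16.5%) at least 1 library had no counts while another had 1 CPM or more, and 28 of these were contigs of clusters. Summed over clusters, 5 of the 95 units tested (5.26%) had an unadjusted edgeR p below 0.05, against 9.43% of all units, and the median log2 fold change was 0.08. Values of single contigs are given beside the sum of their cluster.

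Histone H1 showed the widest contig difference of the histones. Contig 2 of cluster CL4476 (CL4476.Contig2_zju) had 0, 288 and 89.9 CPM in co-culture, against 0 and 0 CPM in plant alone. Contig 1 (CL4476.Contig1_zju) had 53.7, 0 and 0 CPM in co-culture, against 52.8 and 50.2 CPM in plant alone. Co-culture 1 thus carried the same contig as both plant alone libraries, and co-culture 2 and 3 carried the other. Contig 2 was the only DESeq2 call of the group (adjusted p = 2.76e-06), while edgeR gave an adjusted p of 0.628. The authors' deposited table called the same contig up and listed it at 0 for pooled plant alone. It called contig 1 down, with a log2 ratio of -1.34.

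The sum of both H1 contigs was 53.7, 288 and 89.9 CPM in co-culture and 52.8 and 50.2 CPM in plant alone. All co-culture libraries lay above plant alone, co-culture 1 by less than the gap between the plant alone libraries, and co-culture 2 was highest. The log2 fold change of the sum was 1.49 ± 0.76 (SE), with an adjusted p of 0.559 by edgeR and 0.414 by DESeq2. A further H1 unigene, Unigene15162_zju, had 70.3, 15.97 and 4.99 CPM in co-culture and 54.8 and 47.2 CPM in plant alone, so that here co-culture 2 and 3 were lowest. The H1 class of the genera kept had 124, 304 and 94.9 CPM in co-culture, against 108 and 97.4 CPM in plant alone. Its ratio of means was 1.70, and 1.07 without co-culture 2.

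**Figure D3:**
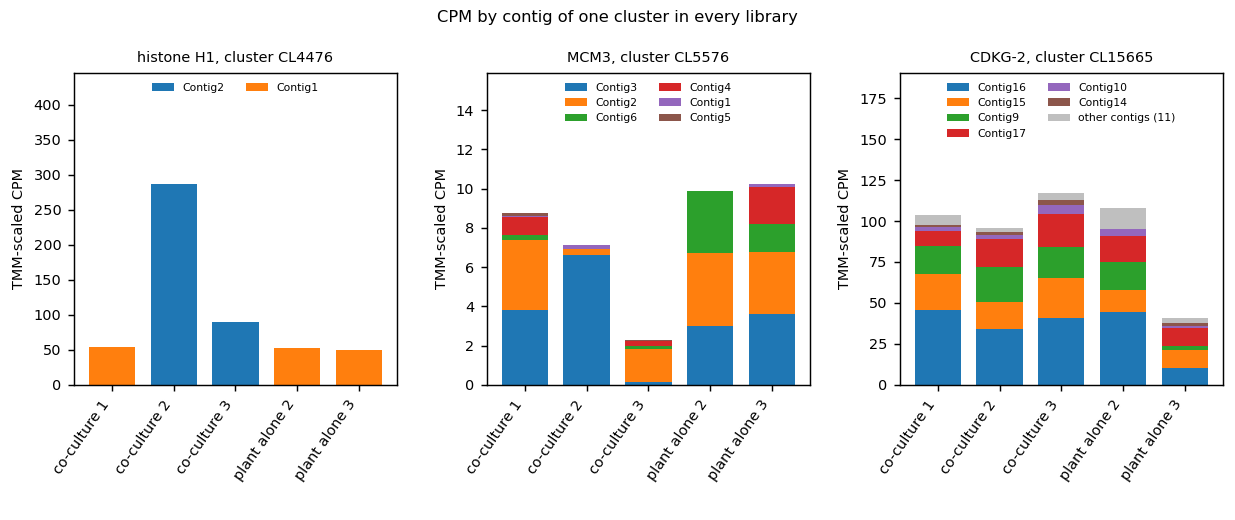
CPM of the contigs of the histone H1, MCM3 and CDKG-2 clusters (stacked bars, 1 colour per contig) in co-culture 1 to 3 and plant alone 2 and 3. Co-culture 1 and both plant alone libraries hold H1 contig 1 and co-culture 2 and 3 hold contig 2; MCM3 is 93.1% contig 3 in co-culture 2 and 5.45% in co-culture 3.

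Core histones varied less. H2B, the partner of H2A in the nucleosome, had 5 of 6 tested unigenes with a positive log2 fold change and a class median of 0.77. The most abundant, an H2B.11 (Unigene2983_zju), had 43.3, 75.9 and 47.4 CPM in co-culture and 28.4 and 43.4 CPM in plant alone, a log2 fold change of 0.63 ± 0.39 (SE; adjusted p = 0.689 by edgeR). Co-culture 1 was level with plant alone 3. H2B summed to 89.4, 141 and 93.03 CPM in co-culture and to 63.7 and 90.0 CPM in plant alone, with overlapping ranges. In the H2B.11 cluster CL15456 the sum was 14.3, 28.2 and 14.4 CPM in co-culture, above the 7.58 and 11.8 CPM of plant alone.

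H2A of the genera kept was near equal in the groups. The H2A.3 unigene with the highest level (Unigene7948_zju) had 50.3, 65.2 and 27.6 CPM in co-culture and 42.3 and 45.5 CPM in plant alone, so that co-culture held both the highest and the lowest library. Variant H2AX, which marks DNA breaks when phosphorylated, summed to 20.4, 23.5 and 18.7 CPM in co-culture and to 22.9 and 26.9 CPM in plant alone. H3 had 3 unigenes that together reached 2.67 FPKM at most, and H4 a single one with 3.52, 3.26 and 1.61 CPM in co-culture and 3.29 and 2.81 CPM in plant alone. The H2A.Z chaperone CHZ1, known from yeast, summed to 20.1, 21.4 and 18.5 CPM in co-culture and lay below the 21.8 and 25.98 CPM of plant alone, by less than the spread of the plant alone libraries.

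The low levels of H3, H4 and the small subunit of ribonucleotide reductase depend on the genera kept. The H1, H2A and H2B sums given above do so too. H1 names of other species gave 281, 689 and 270 CPM in co-culture and 225 and 315 CPM in plant alone. H2A names of other species gave 220, 230 and 177 CPM in co-culture and 176 and 281 CPM in plant alone. Both lay above the same class of the group in every library. H2B names of other species gave 45.9 to 115 CPM per library. Histone H3 names with hits to other species (7 unigenes) summed to 271, 313 and 254 CPM in co-culture and to 270 and 418 CPM in plant alone. Most of it came from CL11050.Contig1_zju, named after a centromeric H3-like protein of Camelina sativa, with 237, 253 and 214 CPM in co-culture and 234 and 291 CPM in plant alone. Some histones of other species were high in plant alone 3 only. There, H3 CL14051.Contig2_zju had 65.2 CPM, H2A Unigene5439_zju (Auxenochlorella protothecoides) 50.6 CPM and H2B Unigene9655_zju (Cyanidioschyzon merolae) 51.1 CPM. In all other libraries these unigenes had at most 3.43 CPM. The H3 unigenes of the group summed to 1.43, 0.939 and 0.825 CPM in co-culture and to 1.88 and 1.32 CPM in plant alone. H4 names with hits to other species summed to 29.8, 37.4 and 14.2 CPM in co-culture and to 42.2 and 39.9 CPM in plant alone. The small subunit did so to 15.7, 16.7 and 14.2 CPM in co-culture and to 19.5 and 19.6 CPM in plant alone, against at most 1.25 CPM in the genera kept. MCM names with hits to other species added 11.5, 6.48 and 10.2 CPM in co-culture and 9.41 and 4.47 CPM in plant alone.

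The MCM helicase, a ring of 6 related subunits, was low as a class. It summed to 13.6, 13.7 and 13.4 CPM in co-culture, below the 15.6 and 16.5 CPM of plant alone, with a ratio of means of 0.847. When the MCM names with hits to other species were added, the ranges of the groups overlapped. The steady co-culture sum held opposite shifts. MCM3 summed to 8.78, 7.12 and 2.31 CPM in co-culture and to 9.88 and 10.3 CPM in plant alone. MCM6 summed to 4.10, 3.96 and 9.98 CPM in co-culture and to 4.71 and 5.28 CPM in plant alone. Of 11 tested MCM unigenes 5 had a positive and 6 a negative log2 fold change. MCM3 cluster CL5576 had 8.87, 7.12 and 2.27 CPM in co-culture and 9.88 and 10.2 CPM in plant alone, which put all co-culture libraries below plant alone (log2 fold change -0.71 ± 0.61 SE; adjusted p = 0.711 by edgeR). Its contig 6 (CL5576.Contig6_zju) had 0.223, 0 and 0.165 CPM in co-culture and 3.14 and 1.43 CPM in plant alone. Contig 3 (CL5576.Contig3_zju) had 3.83, 6.63 and 0.124 CPM in co-culture and 2.98 and 3.61 CPM in plant alone. Contig 3 had a log2 fold change of 0.10 ± 1.37 (SE), whose sign reversed under several alternatives, and was near the floor in co-culture 3 alone.

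MCM6 cluster CL809 had 3.03, 2.23 and 5.57 CPM in co-culture and 2.25 and 1.66 CPM in plant alone, and the groups overlapped. Contig 1 of that cluster (CL809.Contig1_zju) had 0.490, 0.148 and 0.701 CPM in co-culture and no counts in plant alone. That is at least 5.44-fold higher in co-culture against 3 counts over the plant alone group. The authors' deposited table lists 31.7 pooled expected counts for co-culture and 1.97 for plant alone.

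GINS, the helicase partner made of SLD5, PSF1, PSF2 and PSF3, made up most of the other DNA replication class, which summed to 120 to 132 FPKM, against at most 16.7 FPKM for MCM. SLD5 (Unigene5456_zju) had 35.8, 35.3 and 32.2 CPM in co-culture and 34.98 and 49.1 CPM in plant alone. PSF1 summed to 45.2, 47.5 and 38.5 CPM in co-culture and to 40.8 and 37.3 CPM in plant alone. PSF3 had 13 unigenes, which summed to 86.7, 119 and 74.6 CPM in co-culture and to 111 and 87.6 CPM in plant alone. The SLD5, PSF1 and PSF3 sums overlapped between the groups.

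A PSF3 cluster, CL2198, had the smallest edgeR p of all cluster sums in the group. Of its 4 contigs 3 belong to the group, so the sum also holds a contig from outside it. The cluster had 5.43, 3.46 and 5.61 CPM in co-culture and 12.4 and 11.7 CPM in plant alone, and all co-culture libraries lay below plant alone. The log2 fold change was -1.31 ± 0.37 (SE), with an adjusted p of 0.507 by edgeR and 0.0627 by DESeq2. Its contig 2 (CL2198.Contig2_zju) had 4.23, 0 and 0 CPM in co-culture and 3.71 and 3.15 CPM in plant alone, and its contig 1 (CL2198.Contig1_zju) had 0, 3.46 and 3.09 CPM in co-culture and 1.57 and 0.745 CPM in plant alone.

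DNA2, a helicase and nuclease that trims Okazaki fragments, summed to 2.58, 0 and 1.81 CPM in co-culture and to 3.29 and 1.61 CPM in plant alone. PCNA overlapped between the groups, at 10.2, 10.6 and 7.38 CPM in co-culture and 8.99 and 7.63 CPM in plant alone. The large subunit of ribonucleotide reductase did as well, at 22.9, 29.7 and 24.5 CPM in co-culture and 22.6 and 25.2 CPM in plant alone. Its main contig (CL14560.Contig1_zju) had a log2 fold change of 0.17 ± 0.34 (SE; adjusted p = 0.915 by edgeR).

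D-type cyclins, which respond to sugar and hormones in Arabidopsis, summed to 23.6, 16.4 and 21.2 CPM in co-culture and to 17.1 and 22.1 CPM in plant alone. Cyclin-D4-1 held the most abundant of them. That contig (CL31.Contig4_zju) had 7.31, 5.29 and 6.76 CPM in co-culture and 3.40 and 6.02 CPM in plant alone, and co-culture 2 lay between the plant alone libraries. The 10 tested D-type unigenes had a median log2 fold change of -0.14, with 4 positive and 6 negative.

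Of the 19 role classes, cyclin-A was the only one whose summed CPM was higher in every co-culture library than in both plant alone libraries, and 3 classes were lower in every one. Among all unigenes tested, 12.8% lay wholly above and 17.2% wholly below. Those shares are of single unigenes, and no such share was taken for class sums. Cyclin-A had 44.3, 56.6 and 45.9 CPM in co-culture and 40.4 and 28.8 CPM in plant alone, a ratio of means of 1.41. Without plant alone 2 the ratio was 1.70, and without plant alone 3 it was 1.21. Of 10 tested unigenes 8 had a positive log2 fold change (median 0.39), and none had an unadjusted p below 0.05. Cyclin-A3-1, which had 8 unigenes in cluster CL5237, summed to 32.9, 38.2 and 41.4 CPM in co-culture and to 34.2 and 22.5 CPM in plant alone. Cyclin-A2-1 summed to 11.4, 18.3 and 4.45 CPM in co-culture and to 6.17 and 6.36 CPM in plant alone. Neither subfamily on its own kept the groups apart, since co-culture 1 lay below plant alone 2 for A3-1 and co-culture 3 lay lowest for A2-1.

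Cyclin-B3-1 held unigenes of opposite direction. A short unigene (Unigene26574_zju) had 0.134, 0.0494 and 1.11 CPM in co-culture and 6.64 and 3.84 CPM in plant alone, a log2 fold change of -3.57 ± 1.31 (SE). It is named here because its unadjusted p was below 0.05, although the rule for named unigenes did not pick it. Contig 14 of cluster CL1858 (CL1858.Contig14_zju) had 0.178, 0.643 and 0.454 CPM in co-culture and none in plant alone, at least 5.18-fold higher against 3 counts over the plant alone group. The authors' deposited table lists 28.6 pooled expected counts of that contig for co-culture and 12.1 for plant alone, including reads not analysed here. The group's highest contig in CL1858 (CL1858.Contig11_zju) had 5.97, 8.26 and 11.96 CPM in co-culture and 8.16 and 1.95 CPM in plant alone. Most of that cluster was another product in 4 of the 5 libraries. CL1858.Contig12_zju, named transcription elongation factor B polypeptide 1, held 45.1% to 81.5% of the cluster's CPM. Cyclin-B3-1 as a whole summed to 7.57, 15.2 and 18.4 CPM in co-culture and to 16.8 and 6.995 CPM in plant alone, and these ranges overlapped. The names G2/mitotic-specific cyclin-2 and cyclin-SDS, a meiotic cyclin in Arabidopsis, stayed at or below 0.692 CPM in every library.

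Unigenes named cyclin-B1-2, with the KEGG conflict given above, summed to 89.1, 101 and 68.0 CPM in co-culture and to 83.0 and 83.0 CPM in plant alone. Cyclin-U and cyclin-P names, called after their phosphate-responsive yeast relatives, summed to 19.5, 28.6 and 27.1 CPM in co-culture and to 19.8 and 15.7 CPM in plant alone. A cyclin-U1-1 contig (CL14945.Contig1_zju) had 1.56, 9.10 and 1.07 CPM in co-culture and 0.471 and 0.344 CPM in plant alone. All co-culture libraries were above plant alone, and co-culture 2 was highest. The log2 fold change was 3.24 ± 1.25 (SE), and 1.70 without co-culture 2. The cluster sum was 2.67, 11.2 and 1.07 CPM in co-culture and 1.20 and 0.344 CPM in plant alone, and overlapped.

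Kinases were level as a class, at 460, 446 and 497 CPM in co-culture and 448 and 471 CPM in plant alone. The most abundant, CDKF-4 (Unigene7171_zju), had 38.4, 43.5 and 57.9 CPM in co-culture and 55.9 and 33.0 CPM in plant alone, a log2 fold change of 0.07 ± 0.36 (SE; adjusted p = 0.972 by edgeR). CDKD-1, an activating kinase for other kinases of the family in plants, had 65.3, 90.1 and 83.9 CPM in co-culture and 65.9 and 102 CPM in plant alone. CDKC-2, a partner of cyclin T, had 154, 122 and 117 CPM in co-culture and 127 and 170 CPM in plant alone. The CDKF-4, CDKD-1 and CDKC-2 values overlapped between the groups.

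CDKG-2, related to kinases with a role in splicing in other species, held 20 unigenes. Unigene49285_zju, 3421 bases long, had 1.87, 1.48 and 0.165 CPM in co-culture and 6.43 and 27.2 CPM in plant alone. All co-culture libraries were below plant alone, and plant alone 3 was far above plant alone 2. The log2 fold change was -3.84 ± 1.14 (SE), with an adjusted p of 0.628 by edgeR and 0.0592 by DESeq2. It was -2.44 without plant alone 3. In DESeq2 on cluster sums this unigene was the only unit of the group called (adjusted p = 0.0394; 1 of 94 units, 1.06%, against 1.86% of all).

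The other CDKG-2 contigs were low where that unigene was high. Cluster CL15665, of which 17 contigs belong to the group, had 105, 96.6 and 120 CPM in co-culture and 111 and 41.6 CPM in plant alone. Plant alone 2 lay among the co-culture libraries, and plant alone 3 was the lowest. All CDKG-2 unigenes together had 114, 106 and 138 CPM in co-culture and 124 and 70.8 CPM in plant alone.

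Kinase inhibitors did not separate the groups. SMR1 (Unigene37581_zju), of the plant SIAMESE-RELATED family that favours endoreduplication, had 19.8, 10.8 and 35.9 CPM in co-culture and 30.0 and 52.1 CPM in plant alone. Co-culture 3 lay between the plant alone libraries, and the log2 fold change was -0.89 ± 0.58 (SE; adjusted p = 0.700 by edgeR). KRP-type inhibitor 4 had 24.4, 27.0 and 23.3 CPM in co-culture and 22.4 and 23.5 CPM in plant alone. Inhibitor 5 had 18.6, 16.8 and 17.1 CPM in co-culture and 15.2 and 20.1 CPM in plant alone. The cyclin-D-binding Myb factor (CL3581.Contig2_zju) had 42.4, 15.8 and 32.4 CPM in co-culture and 40.2 and 61.9 CPM in plant alone.

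Cyclins C, H, L and T were lower in every co-culture library as a sum, at 394, 351 and 393 CPM in co-culture and 406 and 574 CPM in plant alone. The ratio of means was 0.774, and 0.934 without plant alone 3. Cyclin-C1-1 (CL8455.Contig1_zju), part of the Mediator kinase module and the most abundant unigene of the whole group at a mean of 72.8 FPKM, had 70.1, 49.0 and 49.2 CPM in co-culture and 85.7 and 134 CPM in plant alone. The means were 56.1 ± 12.1 CPM in co-culture and 110 ± 34.4 CPM in plant alone (SD, n = 3 and n = 2). The log2 fold change was -0.97 ± 0.34 (SE; adjusted p = 0.628 by edgeR, 0.314 by DESeq2), and its cluster sum gave -0.92. The co-culture libraries lay below plant alone with and without the second contig.

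Cyclin-L1-1 contig 3 (CL2348.Contig3_zju), the unigene with the KEGG identifier of U2AF65, had 11.6, 5.83 and 7.96 CPM in co-culture and 18.1 and 26.4 CPM in plant alone (log2 fold change -1.39 ± 0.42 SE). The sum of its cluster had 74.7, 65.8 and 75.7 CPM in co-culture and 72.9 and 128 CPM in plant alone, and overlapped. Cyclin-T1-3, a partner of CDKC in transcription elongation, had 190, 182 and 206 CPM in co-culture and 201 and 260 CPM in plant alone. Cyclin-T1-4 went the other way, with 23.2, 26.4 and 25.9 CPM in co-culture and 20.9 and 19.1 CPM in plant alone.

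**Figure D4:**
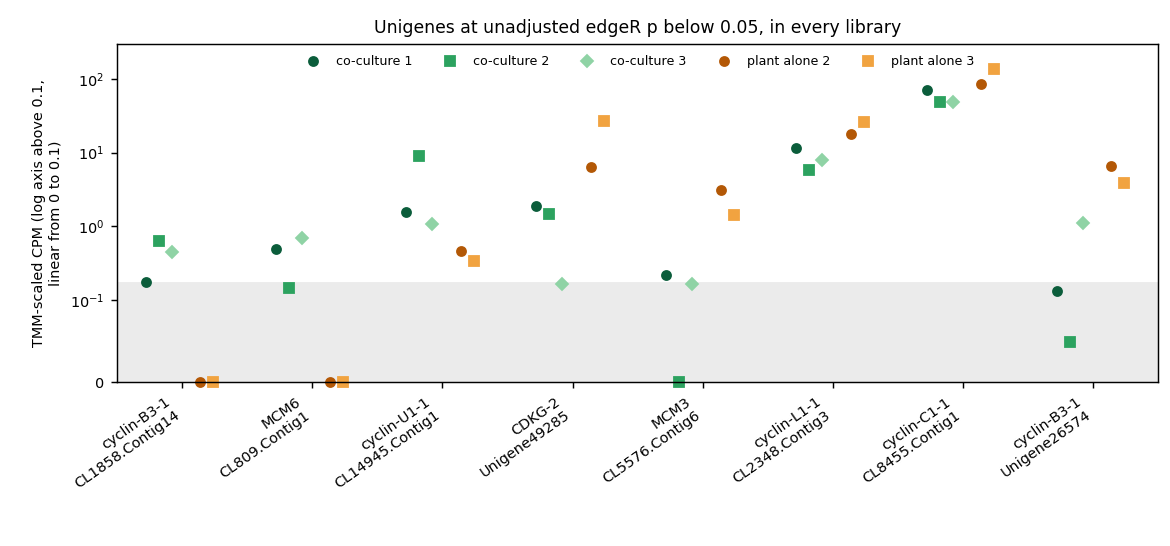
CPM in every library of the 8 unigenes with an unadjusted edgeR p below 0.05 (log axis above 0.1 CPM, linear below), 3 higher in co-culture on the left and 5 lower on the right; grey marks values up to the highest 3-count floor, 0.172 CPM. The co-culture points lie apart from the plant alone points in each unigene, and several lie near or under the floor.

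Other genes of DNA synthesis and mitosis were taken from a list of product names in the same genera, which matched 378 unigenes. Of 247 tested, 149 had a positive and 98 a negative log2 fold change (median 0.20). EdgeR called 0, 7 stood at an unadjusted p below 0.05 (2.83%, against 7.20% of all), and DESeq2 called 3 of 232 (1.29%, against 2.00% of all). Cohesin, condensin and SMC proteins, which hold or fold sister chromatids, had 39 of 58 tested unigenes positive (median 0.61). Replication protein A, which coats single-stranded DNA, had 10 of 11 positive (median 0.73). The replicative polymerases and primase had 13 of 25 positive (median 0.04), and E2F, DP and retinoblastoma-related proteins, which switch on S phase genes, had 13 of 20 positive (median 0.15).

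The unigenes of that list with the smallest p were again single contigs of larger clusters. PDS5 A (CL579.Contig4_zju), a cohesin regulator, had 9.40, 20.9 and 5.69 CPM in co-culture and none in plant alone, at least 146-fold higher against 3 counts over the plant alone group (adjusted p = 2.40e-06 by DESeq2, 0.628 by edgeR). Its cluster had 61.6, 95.6 and 89.9 CPM in co-culture and 55.5 and 54.3 CPM in plant alone. The cluster values of co-culture were all higher, by a smaller factor than the contig.

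Dihydrofolate reductase-thymidylate synthase (CL9159.Contig1_zju), which supplies thymidylate, had 7.97, 9.74 and 19.7 CPM in co-culture and 2.09 and 2.92 CPM in plant alone (log2 fold change 2.31 ± 0.58 SE; adjusted p = 0.0264 by DESeq2, 0.628 by edgeR). Its cluster had 23.4, 15.0 and 23.2 CPM in co-culture and 13.6 and 11.2 CPM in plant alone. All co-culture libraries were above plant alone in the contig and in the cluster.

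The condensin subunits with small p went the other way. SMC4 (CL5747.Contig10_zju) had no counts in co-culture and 2.25 and 0.860 CPM in plant alone, at least 34.7-fold lower against 3 counts over the co-culture group (adjusted p = 0.0316 by DESeq2). Its cluster overlapped, with 13.0, 9.74 and 12.8 CPM in co-culture and 12.7 and 8.14 CPM in plant alone. SMC2-1 (CL9050.Contig2_zju) had no counts in co-culture and 1.05 and 0.516 CPM in plant alone, at least 17.4-fold lower. The sum of its cluster gave a log2 fold change of -0.05.

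The authors' deposited table, which pooled each group, gave a log2 ratio to 200 unigenes of the group. It called 31 up in co-culture (15.5%, against 16.6% of all unigenes in that table) and 25 down (12.5%, against 13.8%). Its pooled plant alone column summed to 59625013 expected counts. The analysed plant alone libraries summed to 37498927, so the table also holds reads not analysed here. In the authors' deposited table SMR1 was called down with a log2 ratio of -1.01, CDKG-2 Unigene49285_zju down with -3.41 and cyclin-U1-1 CL14945.Contig1_zju up with 3.74. For cyclin-C1-1 the authors' deposited table gave -0.91 without a call.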

How the data were processed

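Polyadenylated RNA of iris leaves was sequenced, and unigenes are contigs of an assembled transcriptome with no genome. Reads were aligned with Bowtie2 and quantified with RSEM, and DESeq2 is named too, per the submitters' processing notes, which give no versions. The authors' deposited table is instead labelled with the method DEGseq. The deposited expected counts and FPKM are the authors' values per unigene and library. The authors' deposited table of pooled groups gives summed expected counts, a log2 ratio and p-values with q-values, with the text -NA for some ratios. Protein and KEGG names come from the authors' annotation.

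Expected counts were rounded and tested with edgeR 4.0.16 in R 4.3.3 (quasi-likelihood test, TMM scaling, filterByExpr, group as the only term), with Benjamini-Hochberg adjustment over all 69984 unigenes kept and a threshold of 0.05. CPM values are TMM-scaled. Overlap of the groups was read from these CPM. DESeq2 1.42.0, RLE scaling, no filter, a replicate block, each library left out and counts summed per contig cluster were alternatives, and DESeq2 with libraries left out or on cluster sums was added after seeing the data. The code was tested on simulated data. Plant alone library 1 was not analysed here.

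Unigenes were named by rule: the highest mean FPKM of each role class, the 4 smallest edgeR p in each direction, any call by edgeR or DESeq2, and the 2 smallest p in each direction of the list of other replication and mitosis genes. The members and lists were chosen with earlier results of these data known.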

Additional observations from a re-analysis of the deposited data

How the results depend on the processing

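The median SE of the members' log2 fold changes was 0.60, and edgeR called 0 members under every edgeR setting run. Plant alone had 2 libraries. DESeq2 called 1 member, 1313 unigenes in all and 3 of the other replication and mitosis genes. With libraries left out, DESeq2 called 3 to 11 members and 2160 to 3805 unigenes. Members at an unadjusted p below 0.05 numbered 14 with no filter, 5 as cluster sums, and 5 to 18 with a library left out. The members' median log2 fold change was 0.0855 with no filter, 0.0558 with the replicate block, 0.0782 as cluster sums and 0.0495 to 0.131 with a library left out. For the numbers 2 and 3 that the groups share, the r of deviations between libraries was 0.0385 and 0.0782. With 2 plant alone libraries the deviations mirror each other, so these values cannot show whether the libraries were paired. The replicate block gave 9 members at an unadjusted p below 0.05 and 0 calls.

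Class medians of log2 fold change moved beyond 1 SD of the library medians as follows. With no filter they were 0.0935 for MCM, -0.19 for the small subunit of ribonucleotide reductase, -1.08 for H3, -0.0252 for other DNA replication names and -1.15 for other cyclin names. As cluster sums they were -0.43 for the large and -0.19 for the small subunit of ribonucleotide reductase, 0.13 for cyclin-B, -0.40 for H3 and 0.49 for H4. The H4 value is that of cluster CL15822, of which H4 CL15822.Contig5_zju held 4.27% to 10.8%. CL15822.Contig3_zju and CL15822.Contig4_zju, without a histone name, each held at least 25.7%. With the replicate block they were 0.21 for the small subunit and -2.51 for H1. With a library left out they ranged between 0.0794 and 0.47 for kinases, 0.0209 and 0.35 for kinase inhibitors, -0.91 and 0.15 for MCM, -0.22 and 0.17 for the large subunit, 0.15 and 0.78 for cyclin-B, 0.47 and 1.88 for cyclin-U and -P, -2.27 and -0.59 for H1, 0.31 and 0.92 for H2B, -0.58 and 2.73 for H3, -0.36 and -0.0862 for other DNA replication names, and -0.27 and 0.23 for cyclins C, H, L and T.

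Of 29 named unigenes, 8 had a reversed sign under an alternative. MCM3 CL5576.Contig3_zju had -1.61 with the replicate block, -0.71 as a cluster sum and -0.75 to 0.67 with a library left out. As cluster sums, CL5810.Contig2_zju of ribonucleotide reductase had -0.19, cyclin-A3-1 CL5237.Contig1_zju 0.35, H4 CL15822.Contig5_zju 0.49 and SMC4 CL5747.Contig10_zju 0.20. The H4 contig held 4.27% to 10.8% of its cluster, so that sum mostly reflects contigs without a histone name. H2A.3 Unigene7948_zju had -0.0467 with the block. With a library left out, the ranges were -0.92 to 0.0738 for this cyclin-A3-1, -0.15 to 0.40 for this H2A.3, -0.31 to 0.16 for this H4, -0.23 to 0.49 for CDKF-4 and -0.52 to 0.000338 for SLD5. The cause of these shifts was not tested.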
